A study of Mus musculus with 10 samples.

Results

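Astrocytes are the glial cells that surround neurons, and the genes described here are 10 that mark them: Gfap, Aqp4, Gja1, Ntsr2, Aldoc, Sparcl1, Slc1a2, Slc1a3, Glul and Ednrb. The probe sets were chosen by gene symbol and not by their measured values, and each probe set that carried one of the symbols, or a synonym of one, was taken. Of the 10 genes 9 had a probe set, among 8251 named genes, and they held 13 of the 12422 probe sets. No probe set named Slc1a3 in the annotation used here, and that gene is not analysed here. On both array designs lay 10 of the 13 probe sets, among 9977 shared ones, and 3 lay on the revised design alone, among 2445 such.

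The cultures were primary cortical neurons of Swiss albino mice, taken from foetuses at gestation day 15 or 16. On day 5 in vitro they were given 1 µM lactacystin, which blocks the proteasome, the complex that degrades proteins marked for destruction. The groups were lactacystin for 24 h (3 arrays), control at 24 h (2 arrays), lactacystin for 48 h (3 arrays) and control at 48 h (2 arrays), each array with RNA of 1 sample. Lactacystin was stored in DMSO, and the labels do not state what the controls received, nor whether samples of a group were separate cultures, so a p-value here reflects how much the arrays of a group varied, and that variation may be purely technical. The study concerns neuronal death under lactacystin. The samples were bulk RNA, so RNA of any glia in the cultures was measured together with that of the neurons. In such bulk samples fewer cells of a type and less RNA per cell cannot be told apart.

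The arrays were Affymetrix GeneChips of the U74A design and of its revision U74Av2, and each group held 1 U74A array. That array was replicate 1 of lactacystin at 24 h and of both control groups, and replicate 3 of lactacystin at 48 h. Values below are signals on a linear scale, with the trimmed mean of each array set to 500. Changes are differences of log2(signal + 32), adjusted for array design, with their standard errors (SE), and the threshold was an adjusted p of 0.05 over the 6984 shared probe sets tested. All 10 shared probe sets described here were among those tested. Of 9 measured neuron markers the summed signal ran from 18906 to 30283 under lactacystin and from 27455 to 36524 in controls, and the labelled cell type was thus present in each group.

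Gfap forms the intermediate filaments of astrocytes, and its level rises when these cells react to injury. Aqp4 is the water channel of their end feet, and Gja1, a connexin, joins neighbouring astrocytes through gap junctions. Slc1a2 and Slc1a3 take up glutamate released at synapses, and Glul turns it into glutamine that neurons can reuse. Aldoc is the brain form of aldolase in glycolysis, Ntsr2 a neurotensin receptor, Ednrb an endothelin receptor and Sparcl1 (hevin) a secreted protein that promotes synapse formation. In the developing cortex astrocytes arise after the neurons, from the same progenitor cells, and cytokine signals through STAT3 are among those that turn on Gfap.

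Promoter windows are shown for the 4 measured genes in which a searched motif was found, Gfap, Ntsr2, Aldoc and Gja1, and for Ednrb as a gene without one. The choice of the first 4 thus rests on the letters and not on the expression values. Slc1a2 and Glul, which also had neither motif, are not shown, and no window of Aqp4 or Sparcl1 was used. Under lactacystin Ednrb and Glul 94852_at, with neither motif, were higher at 48 h than at 24 h, as Gfap, Ntsr2 and Aldoc were. Slc1a2 (0.05) and Glul 161826_r_at (-0.02), also with neither motif, did not pass in that comparison, nor did Gja1. A link between motif and change was not tested. Each window holds 300 bases, 250 before the annotated start and 50 after it, on the gene's strand, from RefSeq with the build GRCm38.p6. Capitals mark matches to TTCNNNGAA, the spacing of STAT sites, and to TGANTCA, the core of AP-1 sites. Both motifs read the same on both strands. The Gfap window is chr11:102897151-102897450 on the minus strand, that of Ntsr2 chr12:16653220-16653519, that of the downstream of 2 annotated Aldoc starts chr11:78323948-78324247, and that of Gja1 chr10:56377050-56377349, all 3 of these on the plus strand. That of Ednrb is chr14:103843652-103843951 on the minus strand.
Gfap: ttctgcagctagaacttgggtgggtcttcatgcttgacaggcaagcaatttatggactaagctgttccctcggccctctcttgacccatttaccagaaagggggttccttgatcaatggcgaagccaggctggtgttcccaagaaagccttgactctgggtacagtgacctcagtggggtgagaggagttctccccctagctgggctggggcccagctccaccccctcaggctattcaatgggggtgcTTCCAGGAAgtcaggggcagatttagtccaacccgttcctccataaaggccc
Ntsr2: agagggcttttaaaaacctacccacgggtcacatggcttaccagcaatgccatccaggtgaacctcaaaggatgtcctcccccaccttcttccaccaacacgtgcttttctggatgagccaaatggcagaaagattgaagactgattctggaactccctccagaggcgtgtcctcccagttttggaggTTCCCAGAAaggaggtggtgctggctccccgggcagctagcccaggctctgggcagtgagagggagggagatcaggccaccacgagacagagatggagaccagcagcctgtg
Aldoc: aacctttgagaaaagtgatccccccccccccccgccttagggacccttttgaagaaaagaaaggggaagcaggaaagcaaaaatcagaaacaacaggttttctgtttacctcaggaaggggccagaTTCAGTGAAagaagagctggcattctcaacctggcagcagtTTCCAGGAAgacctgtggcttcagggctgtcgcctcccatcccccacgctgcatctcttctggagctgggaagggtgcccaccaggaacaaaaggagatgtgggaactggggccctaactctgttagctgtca
Gja1: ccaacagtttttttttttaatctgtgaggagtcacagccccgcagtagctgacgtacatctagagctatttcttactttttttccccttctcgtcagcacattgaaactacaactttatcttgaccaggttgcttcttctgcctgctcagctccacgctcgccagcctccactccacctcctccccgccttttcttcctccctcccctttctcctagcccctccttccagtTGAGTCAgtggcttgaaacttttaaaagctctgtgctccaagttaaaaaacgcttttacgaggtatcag
Ednrb: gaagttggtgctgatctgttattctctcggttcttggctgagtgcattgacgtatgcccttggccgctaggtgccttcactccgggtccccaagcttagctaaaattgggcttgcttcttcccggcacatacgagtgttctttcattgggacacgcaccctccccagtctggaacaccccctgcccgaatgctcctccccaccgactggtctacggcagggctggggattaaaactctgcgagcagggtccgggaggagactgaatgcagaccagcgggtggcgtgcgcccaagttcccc

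The STAT-type letters were found in 3 of 7 measured genes with a window used here, Gfap (TTCCAGGAA), Ntsr2 (TTCCCAGAA) and Aldoc (TTCAGTGAA and TTCCAGGAA). Over all 32851 promoter windows of this length 8.30% held them, a share of windows and not of genes, and Aldoc had 2 windows. The AP-1 letters were found in 1 of the 7, Gja1 (TGAGTCA), against 7.81% of all windows. Neither was found in the windows of Slc1a2, Glul and Ednrb or in the upstream window of Aldoc. A match is a description of the letters and not evidence that a factor binds there.

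Gfap fell below control after 24 h of lactacystin on both of its probe sets, and rose above control after 48 h on 94144_g_at. On 94144_g_at its signal was 161.6, 188.0 and 208.3 with lactacystin at 24 h, against 291.5 and 320.4 in the controls. At 48 h it was 862.8, 795.4 and 863.6 with lactacystin, against 333.7 and 264.0 in the controls. The groups did not overlap at either time, and the 3 lactacystin arrays of 48 h were close together on both designs. The change was -0.64 ± 0.15 at 24 h (adjusted p = 0.0155) and 1.40 ± 0.15 at 48 h (adjusted p = 0.000324). Within U74A alone the values were -0.74 and 1.29, and within U74Av2 -0.62 and 1.54. The call at 48 h was kept when any 1 array was left out (1.18 to 1.59, adjusted p at most 0.0115). That at 24 h was lost on U74Av2 alone (adjusted p = 0.0635), without design as a covariate (0.0662), and without control replicate 1 (adjusted p = 0.0553), control replicate 2 (0.179) or lactacystin replicate 1 (0.0625).

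The other Gfap probe set, 94143_at, had the same signs, and passed at 24 h only. There the signal was 11.5, 33.3 and 29.2 with lactacystin at 24 h, against 80.5 and 94.7 in the controls, a fall of -1.09 ± 0.27 (adjusted p = 0.0195). With lactacystin at 48 h it was 98.0, 122.0 and 179.5, against 76.4 and 51.6 in the controls. The groups were apart there too, but the change of 0.77 ± 0.27 did not pass (adjusted p = 0.0951). Several of its values lay below or near the added 32, where the log scale understates a change. The call at 24 h was lost without each of the same 3 arrays, where the change was -1.22, -0.93 and -0.77 (adjusted p = 0.0649, 0.227 and 0.0852). It was also lost on U74Av2 alone, where the change was about as large (adjusted p = 0.0627), and without design as a covariate (-1.10, adjusted p = 0.0732).

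Aqp4 had the deepest fall of the 13 probe sets at 24 h, and did not differ from control past the threshold at 48 h. On 102704_at its signal was 84.4, 41.5 and 23.4 with lactacystin at 24 h, against 370.7 and 215.9 in the controls. All 3 treated arrays lay far below both controls, and the change of -1.89 ± 0.18 (3.72-fold, adjusted p = 7.23e-05) was the fall ranked 8 among the 6984 probe sets. It held without any 1 array (-1.98 to -1.77, adjusted p at most 0.00532). At 48 h the signal was 262.5, 320.2 and 548.1 with lactacystin, against 329.7 and 225.2 in the controls. These groups overlapped across designs, while within each design every lactacystin array lay above the control (0.68 within U74A and 0.32 within U74Av2). The change of 0.49 ± 0.18 did not pass (adjusted p = 0.111).

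The second Aqp4 probe set, 102703_s_at, gave the same order at a lower signal. It had 46.7, 5.9 and 3.9 with lactacystin at 24 h, against 181.9 and 57.9 in the controls, a fall of -1.38 ± 0.26 (adjusted p = 0.00454). That call was lost without control replicate 1 of 24 h (adjusted p = 0.0550), on U74Av2 alone (0.0960) and without design as a covariate (0.166). After 48 h it had 68.2, 149.5 and 233.8 with lactacystin, against 156.4 and 86.6 in the controls, and did not pass (0.35 ± 0.26, adjusted p = 0.459). On both probe sets the U74A array was the highest of its group at each time.

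**Figure D1:**
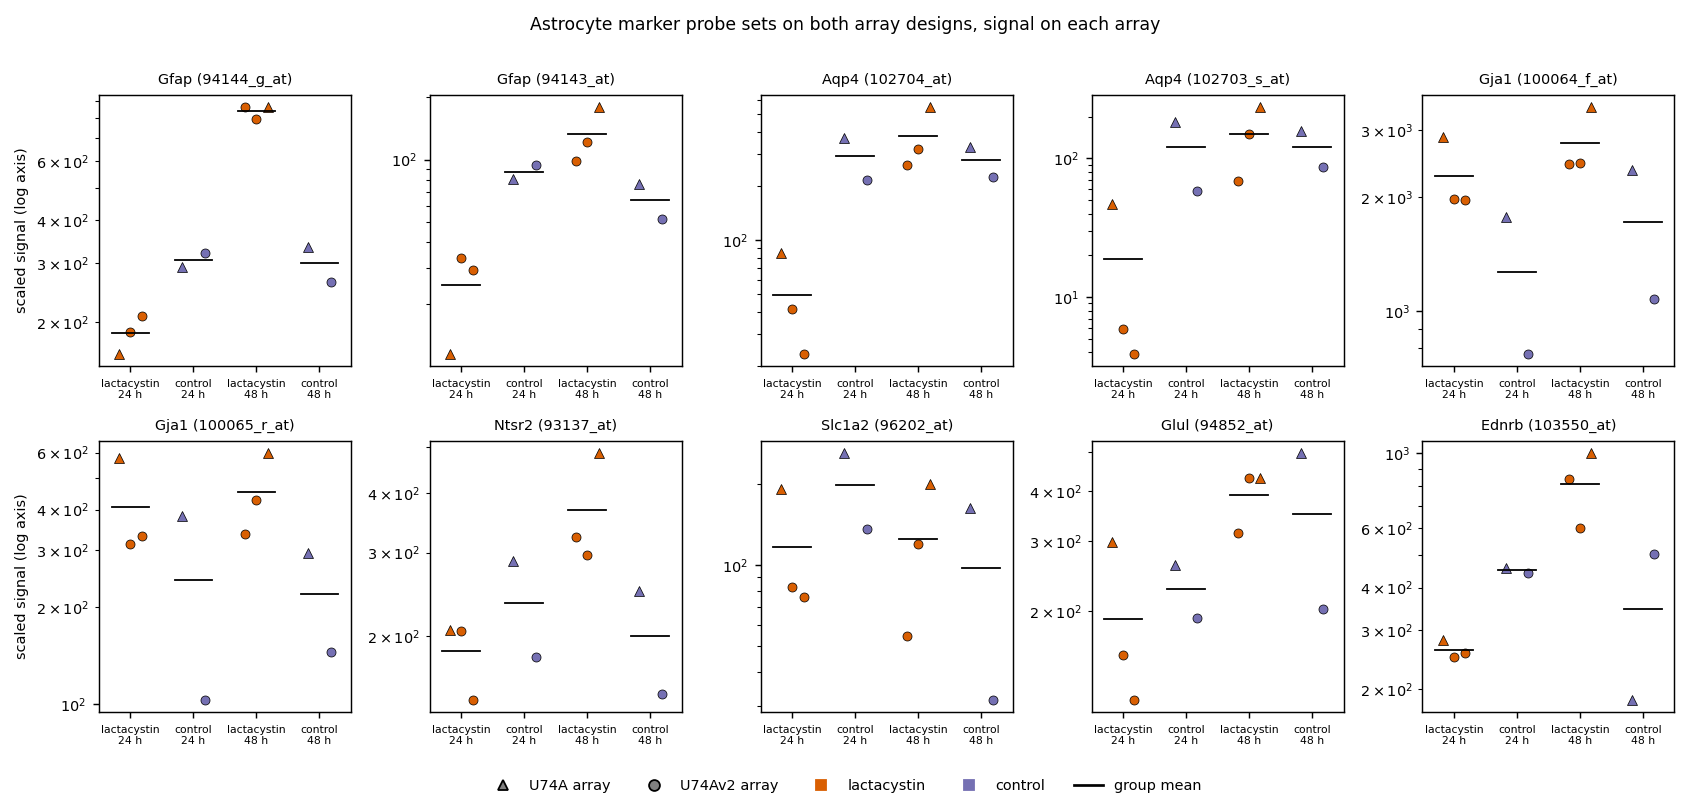
Signal on each array, scaled to a trimmed mean of 500 and drawn on a log axis, for the 10 probe sets measured on both designs; triangles are U74A arrays, circles U74Av2 arrays, and lines group means. Gfap and Aqp4 lie lowest with lactacystin at 24 h, while both Gja1 probe sets have higher means with lactacystin than in controls at each time.

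Gja1 was the exception at 24 h, since it was higher with lactacystin than in controls at both times. On 100064_f_at its signal was 2887.9, 1975.3 and 1962.5 with lactacystin at 24 h, against 1772.3 and 772.8 in the controls, and the groups did not overlap. After 48 h it was 2441.6, 2461.9 and 3452.7 with lactacystin, against 2351.2 and 1078.2 in the controls. The changes were 1.04 ± 0.16 (adjusted p = 0.00137) and 0.90 ± 0.16 (adjusted p = 0.00459). The U74A arrays read higher than the others in each group, and the changes within U74A (0.69 and 0.55) were smaller than those within U74Av2 (1.31 and 1.16). Without design as a covariate neither change passed (adjusted p = 0.269 and 0.454). The call at 48 h was also lost without control replicate 2 of 48 h (0.68, adjusted p = 0.109).

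The other Gja1 probe set, 100065_r_at, had 576.5, 312.2 and 332.5 with lactacystin at 24 h, against 382.7 and 103.2 in the controls. These groups overlapped across designs but not within either, and the design-adjusted rise was 1.00 ± 0.21 (adjusted p = 0.00823). At 48 h its signal was 336.5, 427.0 and 597.8 with lactacystin, against 293.1 and 145.4 in the controls, a rise of 1.14 ± 0.21 (adjusted p = 0.00583). Without design as a covariate these did not pass either (adjusted p = 0.412 and 0.430). The call at 24 h was lost without control replicate 2 of 24 h (0.53, adjusted p = 0.185). That at 48 h was lost without control replicate 1 (1.10, adjusted p = 0.0615) or 2 (1.18, adjusted p = 0.0652) of 48 h, with the change about as large.

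The receptor gene Ntsr2 differed from control at 48 h. Its signal with lactacystin was 206.5, 205.2 and 146.8 at 24 h, against 288.3 and 181.0 in the controls, and did not pass (-0.19 ± 0.17, adjusted p = 0.496). After 48 h it was 324.3, 296.3 and 485.8 with lactacystin, against 249.5 and 150.8 in the controls. All treated arrays were above both controls, and the rise was 0.87 ± 0.17 (adjusted p = 0.00859), with 0.88 within U74A and 0.90 within U74Av2. The call was lost, with the change near its size, without control replicate 2 of 48 h (0.78, adjusted p = 0.113), on U74Av2 alone (0.90, adjusted p = 0.0714) and without design as a covariate (0.79, adjusted p = 0.248).

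Ednrb, the other receptor gene, had 279.8, 249.0 and 255.8 with lactacystin at 24 h, against 458.2 and 442.0 in the controls. The groups were well apart, but the change of -0.73 ± 0.31 did not pass in the fit of all arrays (adjusted p = 0.138), although it did with the 24 h arrays alone (-0.70, adjusted p = 0.00946). At 48 h the signal was 837.3, 599.8 and 1001.9 with lactacystin, against 185.8 and 503.7 in the controls, a rise of 1.26 ± 0.31 (adjusted p = 0.0237). Its size rested on control replicate 1 of 48 h, the 185.8. The change was 2.25 within U74A, which holds that array, and 0.47 within U74Av2. Without it the change was 0.55 and did not pass (adjusted p = 0.186). The call was also lost without lactacystin replicate 1 (adjusted p = 0.0607) or 3 (0.0940) of 48 h, with the 48 h arrays alone (0.0806), with no filter on low probe sets (0.0603) and without design as a covariate (0.103). Without control replicate 2 of 48 h it was 2.08 and passed (adjusted p = 0.00342).

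Slc1a2, the main glutamate transporter of forebrain astrocytes, had 191.1, 82.5 and 76.1 with lactacystin at 24 h, against 259.9 and 136.4 in the controls. After 48 h it had 54.4, 119.5 and 200.4 with lactacystin, against 163.3 and 31.5 in the controls. The groups overlapped at each time across designs but not within either, with the lactacystin arrays lower at 24 h and higher at 48 h. The changes of -0.48 ± 0.25 (adjusted p = 0.233) and 0.56 ± 0.25 (adjusted p = 0.192) did not pass. Between the times, 48 h minus 24 h, the difference was 0.05 ± 0.22 under lactacystin (adjusted p = 0.920) and -0.99 ± 0.27 in the controls (adjusted p = 0.756), neither past the threshold.

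Glul did not pass at either time on either of its probe sets, and those disagreed on its course. On 94852_at its signal was 298.4, 155.7 and 119.8 with lactacystin at 24 h, against 261.6 and 191.8 in the controls, and 314.3, 430.8 and 431.0 with lactacystin at 48 h, against 497.7 and 202.5 in the controls. The changes were -0.17 ± 0.23 (adjusted p = 0.674) and 0.37 ± 0.23 (adjusted p = 0.369). Under lactacystin this probe set was higher at 48 h than at 24 h by 0.99 ± 0.20 (adjusted p = 0.0102), a call lost without lactacystin replicate 3 of 24 h (0.86, adjusted p = 0.0540) and without design as a covariate (0.99, adjusted p = 0.217). On 161826_r_at, which only U74Av2 holds, the signal was 599.8 and 476.4 with lactacystin at 24 h, against 458.0 in the control, and 496.9 and 562.5 with lactacystin at 48 h, against 489.6 in the control. Its change between the times under lactacystin was -0.02 ± 0.15, so the rise of the first probe set was not seen on the second. The suffix r, which Gja1 100065_r_at also carries, marks a probe set built with relaxed design rules.

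Aldoc and Sparcl1 were measured on the 6 U74Av2 arrays alone, where each control group has 1 array that is assumed to vary like the others, and were tested over the 8695 probe sets of that table. Aldoc had 862.3 and 688.9 with lactacystin at 24 h, against 2638.0 in the control, a fall of -1.73 ± 0.15 (3.33-fold, adjusted p = 0.00370). At 48 h it had 3660.2 and 4002.3 with lactacystin, against 2684.6 in the control, which did not pass (0.51 ± 0.15, adjusted p = 0.119). Sparcl1 had 428.9 and 435.1 with lactacystin at 24 h, against 1050.0 in the control, a fall of -1.22 ± 0.13 (adjusted p = 0.00583). At 48 h it had 1043.3 and 1144.9 with lactacystin, against 1397.4 in the control (-0.35 ± 0.13, adjusted p = 0.177). Thus 2 of the 3 probe sets of U74Av2 alone fell at 24 h, where 7.42% of that table was called, 2.88% as lower and 4.54% as higher. At 48 h 0 of the 3 passed in limma (Aldoc and Sparcl1 had unadjusted p = 0.0153 and 0.0341), where 5% was called, 3.13% as higher and 1.87% as lower.

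**Figure D2:**
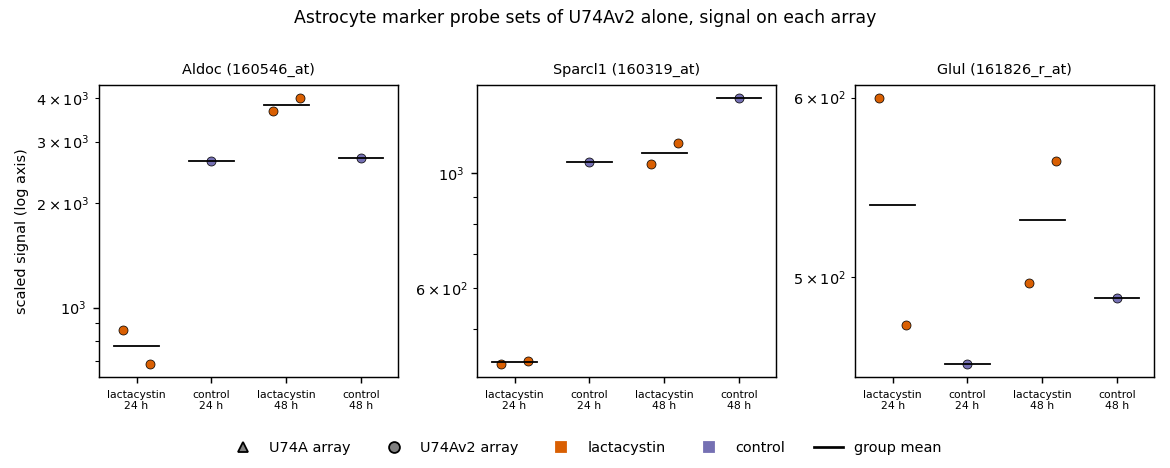
Signal on each U74Av2 array, scaled to a trimmed mean of 500 and drawn on a log axis, for the 3 probe sets that only this design holds. Aldoc and Sparcl1 lie lowest with lactacystin at 24 h, while the Glul probe set stays between 458.0 and 599.8 in every group.

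Over the 10 shared probe sets, 4 fell and 2 rose at 24 h, where 14.8% of all probe sets tested were called, 6.63% as lower and 8.15% as higher. The falls were those of Gfap and Aqp4, and the rises those of Gja1. The median change of the 10 was -0.56, against -0.03 over all tested. At 48 h 5 rose (1 of Gfap, 2 of Gja1, Ntsr2 and Ednrb) and 0 fell, where 10.3% were called, 6.76% as higher and 3.57% as lower. All 10 changes were above 0 at 48 h, as were 55.9% of all, and their median was 0.82 against 0.04. These counts were small and moved with single arrays, as did the calls over all probe sets tested, which were also fewer without a control array of the same time. At 24 h 3 of the 10 passed without control replicate 1 or without control replicate 2, and at 48 h 3 without control replicate 1 and 2 without control replicate 2.

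**Figure D3:**
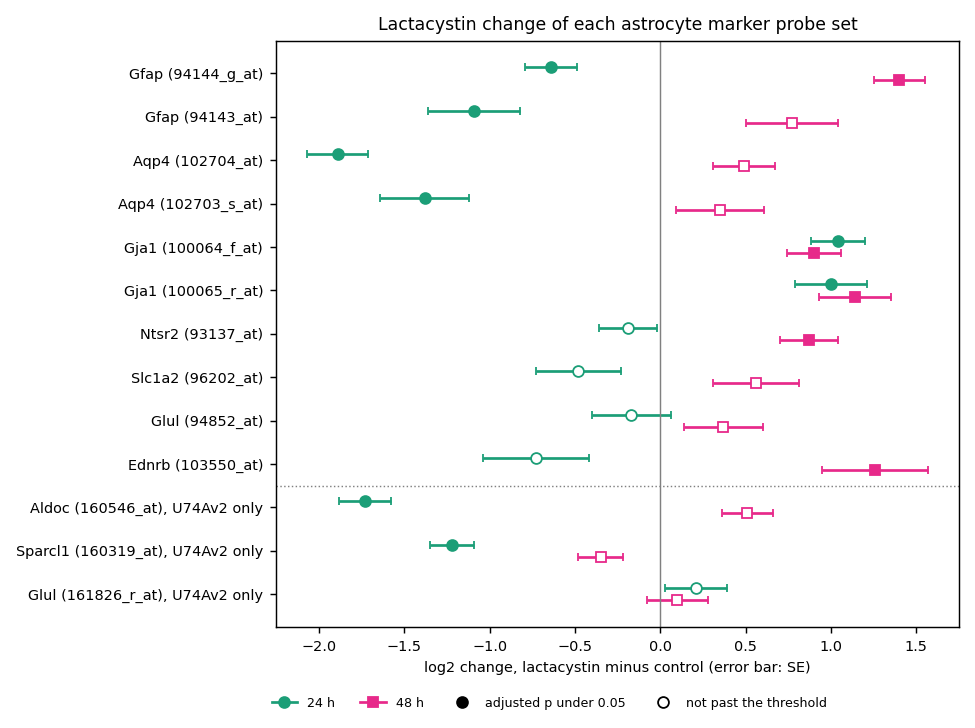
Log2 change, lactacystin minus control, with its SE for each of the 13 probe sets at 24 h (circles) and 48 h (squares); filled symbols passed the threshold, and probe sets under the dotted line come from the 6 U74Av2 arrays alone. At 24 h 10 circles lie at -0.17 or below and at 48 h 12 squares lie at 0.10 or above.

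Probe sets of 1 gene went the same way at each time for Gfap, Aqp4 and Gja1. For Gfap and Aqp4 both probe sets passed at 24 h, and for Gja1 both passed at both times, 100065_r_at with its relaxed design rules included. At 48 h the Gfap sets gave 1.40 and 0.77, of which the first passed. The pair of Glul differed in sign at 24 h, at -0.17 and 0.21, neither past the threshold.

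The effect of lactacystin differed between the times past the threshold for Gfap, Aqp4 and, narrowly and in few of the settings tried, Ednrb. Tested as the change at 48 h minus that at 24 h, 5 of the 10 shared probe sets passed, all as higher at 48 h, where 1.29% of all were called, 0.444% as higher and 0.845% as lower. The difference was 2.38 ± 0.25 for Aqp4 102704_at and 2.04 ± 0.21 for Gfap 94144_g_at (adjusted p = 0.00185 for each), and these held without any 1 array (adjusted p at most 0.0328 and 0.0297). That of Aqp4 was lost on U74Av2 alone (adjusted p = 0.0783) and without design as a covariate (0.382). It was 1.72 ± 0.36 for the other Aqp4 set (adjusted p = 0.0432), 1.86 ± 0.38 for the other Gfap set (adjusted p = 0.0389) and 1.99 ± 0.43 for Ednrb (adjusted p = 0.0498), and each of these 3 lost its call when any of 8 arrays was left out in turn (adjusted p up to 0.174, 0.192 and 0.181), and also with no filter on low probe sets, on U74Av2 alone and without design as a covariate. Ntsr2 stood just outside (1.06 ± 0.24, adjusted p = 0.0575). For Gja1 the differences were -0.14 ± 0.22 and 0.14 ± 0.29, with adjusted p = 0.788 and 0.845, and they differed in sign with the probe set. On U74Av2 alone the difference of Aldoc was 2.24 ± 0.22 (adjusted p = 0.0457, where 0.138% were called, 0.0575% as higher and 0.0805% as lower), and it lost its call without lactacystin replicate 2 or 3 of 24 h (2.40 and 2.08, adjusted p = 0.154 and 0.145), with no filter on low probe sets (2.24, adjusted p = 0.136) and with no trend in eBayes (2.24, adjusted p = 0.205).

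Between the lactacystin groups themselves 7 of the 10 shared probe sets were higher at 48 h than at 24 h, where 11.5% were called, 6.19% as higher and 5.31% as lower. Aqp4 was higher by 2.33 ± 0.16 and Gfap by 2.01 ± 0.13 on the brighter probe set of each (adjusted p = 1.29e-05 for each), Ednrb by 1.50 ± 0.27 (adjusted p = 0.00507) and Ntsr2 by 0.86 ± 0.15 (adjusted p = 0.00415). The call of Ntsr2 was lost on U74Av2 alone (0.73, adjusted p = 0.0579) and without design as a covariate (0.86, adjusted p = 0.148). On U74Av2 alone Aldoc was higher by 2.27 ± 0.13 (adjusted p = 0.00190) and Sparcl1 by 1.28 ± 0.10 (adjusted p = 0.00341), where 8.6% were called, 4.21% as higher and 4.39% as lower. Between the controls 0 of the 10 passed in limma, and 0 of the 6984 (0%), with 390 at an unadjusted p under 0.05. These comparisons share arrays with those above.

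Other genes of astrocytes, listed without regard to how they moved but with earlier results of these data known, were measured beside the markers. Of 14 tested, 7 fell and 2 rose at 24 h, and 6 rose and 0 fell at 48 h, with medians of -0.43 and 0.40. Over all probe sets tested 6.63% were called lower and 8.15% higher at 24 h, and 3.57% lower and 6.76% higher at 48 h, and the lists that follow stand beside the same shares. Plpp3, a lipid phosphatase, changed by -0.67 ± 0.16 at 24 h (adjusted p = 0.0185) and 0.98 ± 0.16 at 48 h (adjusted p = 0.00358), and its difference between the times passed (1.65, adjusted p = 0.00794). Mt3, a metal-binding protein, stood at 0.14 ± 0.13 and 0.98 ± 0.13 (adjusted p = 0.533 and 0.0013). The clotting initiator F3 (1.49 and 1.09) and the secreted chaperone Clu (0.78 and 1.00) were higher at both times, as Gja1 was, with adjusted p at most 0.00148.

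Of 15 genes linked to reactive astrocytes 5 rose and 0 fell at 24 h, and 4 rose and 0 fell at 48 h, with medians of 0.20 and 0.35. The membrane protein gene Emp1 changed by 2.16 ± 0.18 and 2.05 ± 0.18, S100a10 by 2.12 ± 0.22 and 1.46 ± 0.22, and the oncostatin M receptor gene Osmr by 1.38 ± 0.23 and 1.14 ± 0.23, each past the threshold at both times. Most of the 15 did not pass, among them Vim (-0.47 and -0.01), Serpina3n (-0.19 and 0.28) and Timp1 (0.07 and -0.61). Of 9 radial glia and progenitor genes, some also in the previous list, 2 rose at 24 h and 4 at 48 h, among them Sox2 (0.72 ± 0.13, adjusted p = 0.00583) and Nes (0.94 ± 0.13, adjusted p = 0.00161) at 48 h. Of 12 genes of gliogenic signalling 2 rose and 1 fell at 24 h, and 4 rose and 0 fell at 48 h, with Nfia, a transcription factor of astrocyte development, at -0.22 ± 0.16 and 0.93 ± 0.16 (adjusted p = 0.388 and 0.00396). Of 4 other glutamate handling genes 1 fell at each time, the neuronal transporter Slc1a1 (-0.46 ± 0.14 and -0.65 ± 0.14, adjusted p = 0.0470 and 0.0144). Of the 2 tested genes of the endothelin axis and 3 of other connexins and pannexins 0 passed at either time.

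**Figure D4:**
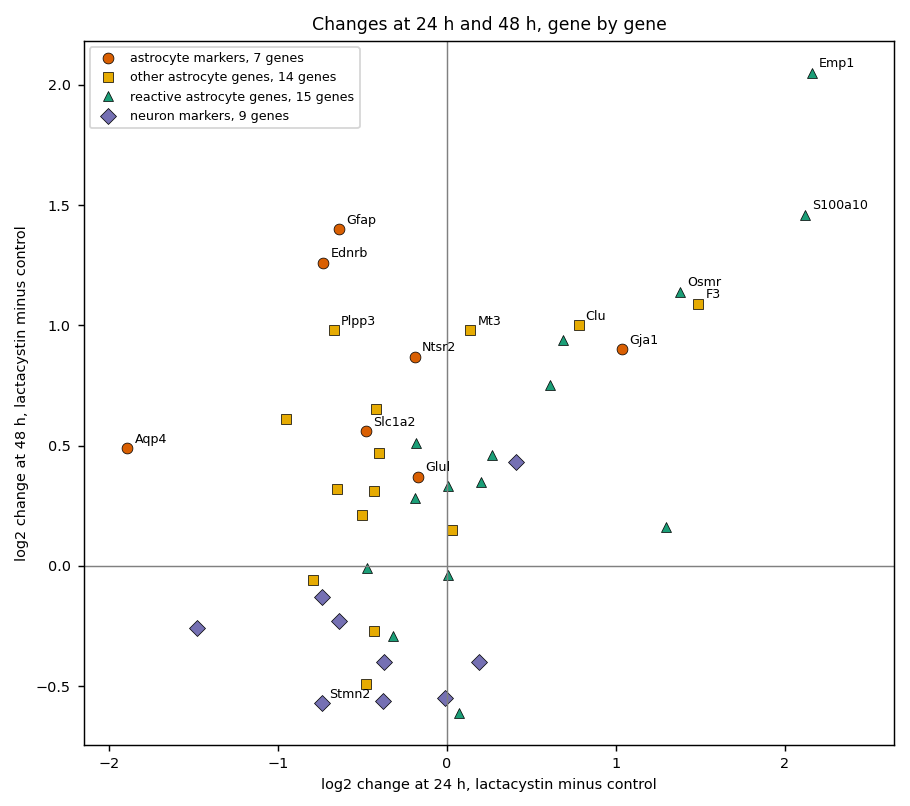
Log2 change, lactacystin minus control, at 24 h (horizontal axis) and 48 h (vertical axis) for tested genes of 4 lists, each gene by its probe set with the highest mean. Gfap, Ednrb, Ntsr2, Slc1a2, Glul and Aqp4 lie left of 0 and above 0, and Gja1 lies right of 0 and above 0.

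Markers of other cell types moved in the same samples, and their part in the astrocyte results was not tested. Of 9 neuron markers 4 fell at 24 h and 3 at 48 h, with medians of -0.38 and -0.40, and their summed signal was 18906 to 23206 with lactacystin at 24 h, against 27455 to 34697 in the controls, and 21851 to 30283 with lactacystin at 48 h, against 33188 to 36524 in the controls. The summed signal of the 7 shared astrocyte markers was 2793 to 4110 with lactacystin at 24 h, against 2260 to 3703 in the controls, and 5024 to 6983 with lactacystin at 48 h, against 2456 to 4111 in the controls. That sum holds Gja1. For the other 6 genes it was 1222, 922 and 830 with lactacystin at 24 h, against 1930 and 1487 in the controls, and 2656, 2562 and 3531 with lactacystin at 48 h, against 1760 and 1378 in the controls. Without Gja1 every lactacystin array was thus below both controls at 24 h and above both at 48 h. Gja1 was the only gene of the 7 with a change above 0 at 24 h. The lower sum at 24 h thus follows in part from leaving it out. Of 6 tested microglia and macrophage markers 1 rose at 24 h and 3 at 48 h, with list medians of -0.04 and 0.47. Cd68 (1.41 ± 0.27 and 1.47 ± 0.27) was the one that rose at 24 h, and the other 5 lay between -0.43 and 0.10 then. Of 8 fibroblast, mural and meningeal markers 1 rose at 24 h and 3 at 48 h, with medians of -0.31 and 0.47. Tagln (1.24 ± 0.27 and 2.12 ± 0.27) was the one that rose at 24 h, when Col1a1, Col3a1, Dcn, Lum and Rgs5 lay between -0.52 and -0.25 and did not pass. Acta2 (0.71 ± 0.33, adjusted p = 0.171) and Ogn (0.56 ± 0.26, adjusted p = 0.173) lay above 0 at 24 h without passing. Both rose at 48 h (2.10 ± 0.33 and 1.58 ± 0.26). At 24 h the summed signal of 11 microglia markers was 750 to 1427 with lactacystin, against 614 to 899 in the controls, and that of 10 fibroblast, mural and meningeal markers 1277 to 2700 with lactacystin, against 1402 to 1445 in the controls. The microglia sum was 1010 to 1616 with lactacystin at 48 h, against 531 to 1075 in the controls, and the fibroblast, mural and meningeal sum 2291 to 4074 with lactacystin, against 1269 to 1333 in the controls. Of the 3 oligodendrocyte lineage, 2 endothelial and 1 erythroid markers tested 0 passed at either time.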

How the data were processed

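RNA of 10 samples was measured on 10 Affymetrix arrays. Signal intensities were deposited, with 1 number for each probe set. Per the submitters' processing notes they came from MAS5, whose version is not given in the sources. After 66 Affymetrix control probe sets had been removed, arrays were scaled to a trimmed mean of 500 (2% trimmed at each end) over the shared probe sets, 32 was added, and log2 was taken. The 2993 shared probe sets with the lowest mean log2 value over all arrays (30%) were left out. Median deposited signals ran from 140.6 to 234.1, and 19.9% to 27.8% of an array's values lay under 32. The number of arrays limits the precision.

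Groups were fitted together in limma 3.58.1 (R 4.3.3; lmFit, eBayes with trend, two-sided) plus a term for array design (5 residual degrees of freedom), and p-values were Benjamini-Hochberg adjusted over 6984 probe sets. Every adjusted p is from limma. The U74Av2 table was scaled, filtered and fitted by itself (6 arrays, 2 residual degrees of freedom, 8695 probe sets tested). The fits were tested on simulated data. Symbols came from the platform annotation, updated through RefSeq, and of the shared probe sets 8724 had 1 symbol, 346 several and 907 none. Named genes are every member, up to 4 of each other list with the largest change at 48 h, and the 5 most like Gfap and Aqp4. Some other genes of these lists that did not pass at either time are also named. The members and lists were chosen with earlier results of these data known. Alternatives were other pseudocounts, scalings, filters, variance models and array subsets, no design covariate, a replicate block and each array left out.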

Additional observations from a re-analysis of the deposited data

Results flagged for a closer look

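The lactacystin effect differed between 48 h and 24 h, by the test of the difference itself, for 6 probe sets of astrocyte markers. On the log2 scale the difference was 2.04 ± 0.21 for Gfap 94144_g_at (SE, adjusted p = 0.00185) and 1.86 ± 0.38 for Gfap 94143_at (adjusted p = 0.0389). It was 2.38 ± 0.25 for Aqp4 102704_at (adjusted p = 0.00185) and 1.72 ± 0.36 for Aqp4 102703_s_at (adjusted p = 0.0432). For Ednrb 103550_at it was 1.99 ± 0.43 (adjusted p = 0.0498), with 2.90 within U74A and 1.21 within U74Av2. The calls of Gfap 94143_at, Aqp4 102703_s_at and Ednrb were each lost when any of 8 arrays was left out. That of Ednrb was also lost in most other settings. For Aqp4 102704_at the call was lost on U74Av2 alone and without design as a covariate. For Aldoc 160546_at on the U74Av2 arrays it was 2.24 ± 0.22 (adjusted p = 0.0457), with adjusted p = 0.136 with no filter on low probe sets and 0.205 with no trend in eBayes.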

How the results depend on the processing

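The 10 shared probe sets had 6 calls at 24 h, 5 at 48 h, 5 for the difference between the times, 7 between the lactacystin groups and 0 between the controls. Without design as a covariate these were 1, 1, 1, 4 and 0, and on the U74Av2 arrays alone 3 at 24 h, 3 at 48 h and 1 for the difference. For the difference there were 3 under quantile normalization, 2 with no filter on low probe sets and 2 with no trend in eBayes. With each array left out in turn the calls were 3 to 7, 2 to 6, 2 to 4, 6 to 7 and 0 to 0, and the 2 calls of U74Av2 alone stayed 2. Over all 6984 probe sets the 1032, 721, 90 and 803 calls became 250, 113, 2 and 133 without the covariate, 558, 385 and 12 on U74Av2 alone for the first 3, and 308 to 1100, 213 to 827, 5 to 187 and 323 to 828 with arrays left out, 439 at 48 h from the groups of that comparison alone, and for the difference 154 at a common median, 48 with no filter and 37 with no trend. The cause of these losses was not tested. A common median moved the median of all changes by -0.15 at 48 h and -0.17 for the difference. Equal replicate numbers mark no stated pairing. For same-numbered arrays the deviations from their group means were correlated, without adjustment for design. The r was 0.66 and 0.51 at 24 h and -0.61 and 0.44 at 48 h. The pair at -0.61 is the only one that spans both array designs, and the arrays of every other pair share a design. In the pairs that share a design, number and design thus cannot be told apart. In the pair that spans both designs the number is shared and the design is not, and its r was negative. The numbers were not used as a pairing. With the replicate block the counts were 6, 5, 4, 7 and 0, and Ednrb lost its call for the difference (1.99, adjusted p = 0.0635).

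Signs turned in some changes that had not passed, and none of them passed then. The cause was not tested. Ranges here are those with each array left out in turn. Glul 94852_at at 24 h was 0.01 with the replicate block (range -0.33 to 0.02). The difference between times ranged from -0.38 to 0.10 for Gja1 100064_f_at and from -0.26 to 0.05 for Glul 161826_r_at. For Gja1 100065_r_at it was -0.03 at a common median and -0.18 on U74Av2 alone (range -0.30 to 0.58, with -0.00 without lactacystin 48 h replicate 2). Between the lactacystin groups Slc1a2 was -0.03 at a common median and -0.07 under quantile normalization (range -0.18 to 0.25), and Glul 161826_r_at ranged up to 0.14 (0.07 without lactacystin 48 h replicate 1). Between the controls Gfap 94144_g_at was 0.05 at a common median and 0.03 under quantile normalization (range -0.24 to 0.17). Aqp4 102704_at was there 0.04 and 0.00, and 0.05 on U74Av2 alone (range -0.21 to 0.11). Aqp4 102703_s_at ranged from -0.11 to 0.32 and Gja1 100065_r_at from -0.42 to 0.46. Ednrb was 0.18 on U74Av2 alone (range -1.26 to 0.27), and Aldoc -0.04 under quantile normalization.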

Other observations

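The genes whose signal over the 10 arrays, adjusted for design, went most like that of Gfap 94144_g_at were Gnai2 (Pearson r = 0.985), S100a13 (0.969), Glycam1 (0.964), Myo6 (0.958) and Oat (0.956). Of these S100a13, a calcium-binding protein gene, changed by 0.77 at 48 h (adjusted p = 0.00436), and Oat, the ornithine aminotransferase gene, by 0.81 (adjusted p = 0.00237). Glycam1 changed by -0.84 at 24 h (adjusted p = 0.0228) and 1.25 at 48 h (adjusted p = 0.00447). Those most like Aqp4 102704_at were Ndufa1 (0.970), Dbi (0.961), Ctcf (0.959), Rab9 (0.959) and Adgrg1 (0.959). Dbi, an acyl-CoA binding protein gene, fell by 1.00 on the log2 scale at 24 h (adjusted p = 0.000332) and stood at 0.38 at 48 h (adjusted p = 0.0694). Adgrg1, an adhesion receptor gene, changed by -0.70 (adjusted p = 0.00229) and stood at 0.03 at 48 h (adjusted p = 0.924). The 10 arrays behind each r share their 4 groups, and the values are descriptions.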
